A study of Mus musculus with 6 samples.

Results

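Parietal epithelial cells line Bowman's capsule and share their embryonic origin with podocytes, the cells that cover the glomerular capillaries. The transcription factors Pax2 and Pax8 and the tight junction protein claudin-1 mark the parietal cells, and podocytes normally lose Pax2 as they mature. CD44 and the tetraspanin CD9 appear when parietal cells or injured podocytes become activated, and CD24 together with prominin-1 (CD133) marks parietal cells regarded as progenitors. The 7 genes Pax2, Pax8, Cldn1, Cd44, Cd24a, Cd9 and Prom1 were taken by symbol from a table of 57132 genes. All 7 were among the 16263 genes that passed the filter on low counts and were tested.

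RNA was sequenced from 3 samples of IMWT podocytes (WT-Col4a3+/+) and 3 samples of IMAS podocytes (AS, Col4a3-/-), with no treatment in either group. Both lines came from adult male mice of 8 weeks and carry the temperature-sensitive tsA58 large T antigen under the interferon-inducible H-2Kb promoter, an antigen that is active at the growth temperature of 33 °C. Per the sample records, cells were kept with 20 U/mL interferon gamma and differentiated for 14 days at 37 °C, while the study's methods give another medium, a shorter time and no interferon gamma during differentiation. Each genotype is represented by 1 line, so that genotype and line cannot be told apart, and no label says that the 3 samples of a line are separate cultures. The p-values therefore measure the spread between these samples, which may be technical.

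The counts per sample summed to between 45417221 and 54290968. Col4a3, the deleted gene, lay between 938 and 1272 CPM (counts scaled to the library size) in WT and between 61.2 and 83.0 CPM in AS samples. WT replicate 1 stood apart from the other WT samples: the chi-square per degree of freedom of its counts against theirs was 47.5 and 49.9, compared with 9.78 between WT replicates 2 and 3 and 18.8 to 22.4 among the AS samples. Values without this library, or the range with each sample left out, are given beside the markers and some of the other genes. The label "podocyte" was only in part borne out by defining markers. The transcription factor Tcf21 had 0 counts in all 6 samples, and nephrin (Nphs1) stood at 0.466 ± 0.0097 in WT against 0.0407 ± 0.039 CPM in AS podocytes (SD, n = 3 each). In contrast, the foot process protein gene Synpo was at 803 ± 44.2 in WT against 526 ± 30.8 CPM in AS podocytes (SD, n = 3 each). The samples are bulk RNA, so fewer cells that express a gene cannot be told apart from less RNA of that gene in each cell.

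Of the 7 markers, 4 passed an adjusted p of 0.05 for AS against WT podocytes (edgeR's quasi-likelihood test, adjusted over all genes tested). Pax2 and Cd44 were lower and Cd24a and Cd9 were higher in AS podocytes, while Pax8, Cldn1 and Prom1 were not called. The share called was 57.1%, against 40.1% of all genes tested, of which 20.4% were called higher and 19.6% lower. In the same 4 genes the CPM of the groups did not overlap, against 52.3% of all genes tested. AS samples were all higher in 2 of them, against 26.4%, and all lower in 2, against 26%. The changes were small: 0 of 7 markers passed a fold change of 2, which 11.2% of all genes passed together with an adjusted p under 0.05. The median log2 fold change of the 7 was 0.20, against 0.0061 over all genes tested. That median is the value of Prom1, which was barely expressed, so it shows no lean of the set. It was 0.036 among genes with a mean CPM of at least 1, which leaves 6 markers. Without WT replicate 2 it was -0.075, and without AS replicate 2 it was -0.098.

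**Figure D1:**
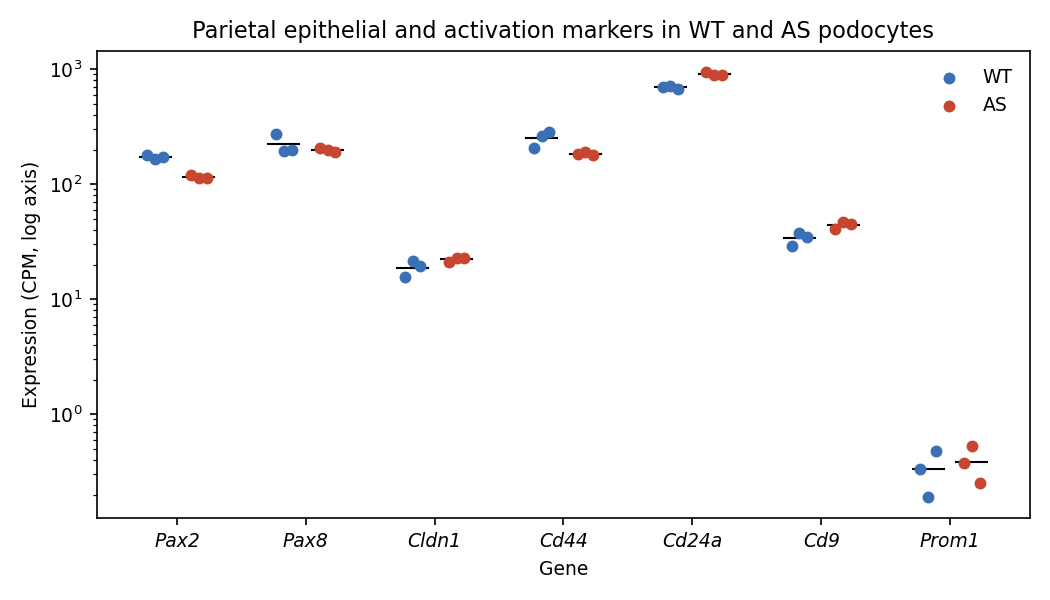
Expression of the 7 marker genes (CPM, log axis) in each of 3 WT (blue) and 3 AS (red) samples, with a black line at the group mean. The AS points lie below all WT points for Pax2 and Cd44 and above all WT points for Cd24a and Cd9. CPM is not corrected for gene length, so the plot is read within a gene.

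Upstream sequence is shown for 4 markers chosen by name, so that the regulatory context of called (Cd44 and Cd9) and uncalled markers (Pax8 and Cldn1) can be read side by side. RefSeq promoter windows (build GRCm38.p6, not the build of the counts) were found for 6 of the 7 genes. The stretch from 250 to 51 bases before the start is given 5′ to 3′ on the gene's strand, with each GC box (GGGCGG, either strand) in capitals. The Pax8 stretch is chr2:24475650-24475849, that of Cldn1 is chr16:26371890-26372089, that of Cd44 is chr2:102901716-102901915 and that of Cd9 is chr6:125494811-125495010, all on the minus strand.
Pax8: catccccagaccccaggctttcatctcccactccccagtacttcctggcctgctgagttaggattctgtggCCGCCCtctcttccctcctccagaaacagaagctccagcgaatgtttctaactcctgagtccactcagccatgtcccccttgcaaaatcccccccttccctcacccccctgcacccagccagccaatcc
Cldn1: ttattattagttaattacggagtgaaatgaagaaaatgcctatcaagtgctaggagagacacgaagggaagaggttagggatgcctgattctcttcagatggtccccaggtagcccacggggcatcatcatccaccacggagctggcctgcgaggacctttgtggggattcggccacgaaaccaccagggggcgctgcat
Cd44: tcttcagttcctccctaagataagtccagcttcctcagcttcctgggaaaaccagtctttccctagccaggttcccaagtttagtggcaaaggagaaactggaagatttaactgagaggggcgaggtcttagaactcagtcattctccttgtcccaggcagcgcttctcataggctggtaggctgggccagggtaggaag
Cd9: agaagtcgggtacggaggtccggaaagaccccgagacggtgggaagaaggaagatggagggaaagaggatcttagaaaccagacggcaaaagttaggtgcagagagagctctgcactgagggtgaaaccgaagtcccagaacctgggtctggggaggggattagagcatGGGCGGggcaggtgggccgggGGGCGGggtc

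The Cd9 stretch held 2 GC boxes and 10 CpG dinucleotides, and 70.7% of the 32851 windows in the RefSeq table had fewer CpG in the same stretch. Pax8 had 1 GC box and 1 CCAAT box with 2 CpG, Cldn1 had 8 CpG and no GC box, and Cd44 had 2 CpG and no GC box. Over all windows, 24.6% held a GC box and 28.4% a CCAAT box. None of these 4 stretches held, on either strand, the TATA box letters TATAAA, which 9.14% of all windows held. The same was true of the AP-1 letters TGACTCA, held by 3.61% of all windows, and of the E-box letters CACGTG, held by 4.34%. Absence of these letters says nothing about a factor outside the stretch, and binding was not measured.

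Pax2 (ENSMUSG00000004231.17, chromosome 19), a paired box factor that drives nephric epithelium formation, had the largest log2 fold change of the 7 markers. It reached 179, 164 and 171 CPM in WT replicates 1 to 3 and 119, 114 and 113 in AS replicates 1 to 3. Every AS sample was well below the lowest WT sample, and the samples of a line lay close together. The group means were 171.5 ± 7.23 and 115.5 ± 3.28 CPM (SD, n = 3 each), and the AS level was 0.674 times that of WT. The log2 fold change was -0.57 (SE, its standard error, 0.055, adjusted p = 4.89e-05, edgeR), and it stayed between -0.60 and -0.54 with each sample left out in turn.

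Pax8 (ENSMUSG00000026976.16, chromosome 2), the close relative of Pax2 that acts beside it in the nephric lineage, was at 272, 194 and 197 CPM in WT replicates 1 to 3 and 208, 197 and 190 CPM in AS replicates 1 to 3. Only WT replicate 1 was high, and the other 5 samples overlapped. The means were 221 ± 44.0 and 198 ± 9.32 CPM (SD, n = 3 each), and AS minus WT on the log2 scale was -0.16 (SE 0.12, adjusted p = 0.323, edgeR), no more than the samples of a line varied. Without WT replicate 1 it was 0.017 (adjusted p = 0.850, edgeR). A transcript on the opposite strand, Gm13415, overlaps Pax8 and summed to 195 counts in WT against 133 counts in AS samples, against at least 9097 Pax8 counts in each sample.

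The level of Pax2 relative to Pax8, each per kilobase of exon, was 0.736, 0.948 and 0.973 in WT replicates 1 to 3 and 0.642, 0.650 and 0.668 in AS replicates 1 to 3. The groups did not overlap. An exact permutation test gave p = 0.10, two-sided, the smallest that 3 against 3 samples allow. Both genes were expressed at a high level in each line: Pax8 was at 36.5 ± 7.26 and Pax2 at 31.7 ± 1.34 RPKM (CPM per kilobase of exon, SD, n = 3) in WT podocytes. Averaged over the 6 samples, 90.8% of the protein-coding genes tested had a lower RPKM than Pax8 and 87.1% a lower RPKM than Pax2. Of the 9 Pax genes, only Pax9, a factor of pharyngeal and skeletal development, also passed the filter. It was at 0.207 ± 0.035 RPKM in WT and 0.433 ± 0.068 RPKM in AS podocytes (SD, n = 3 each), a rise of 1.06 on the log2 scale (SE 0.235, adjusted p = 0.00587, edgeR).

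**Figure D2:**
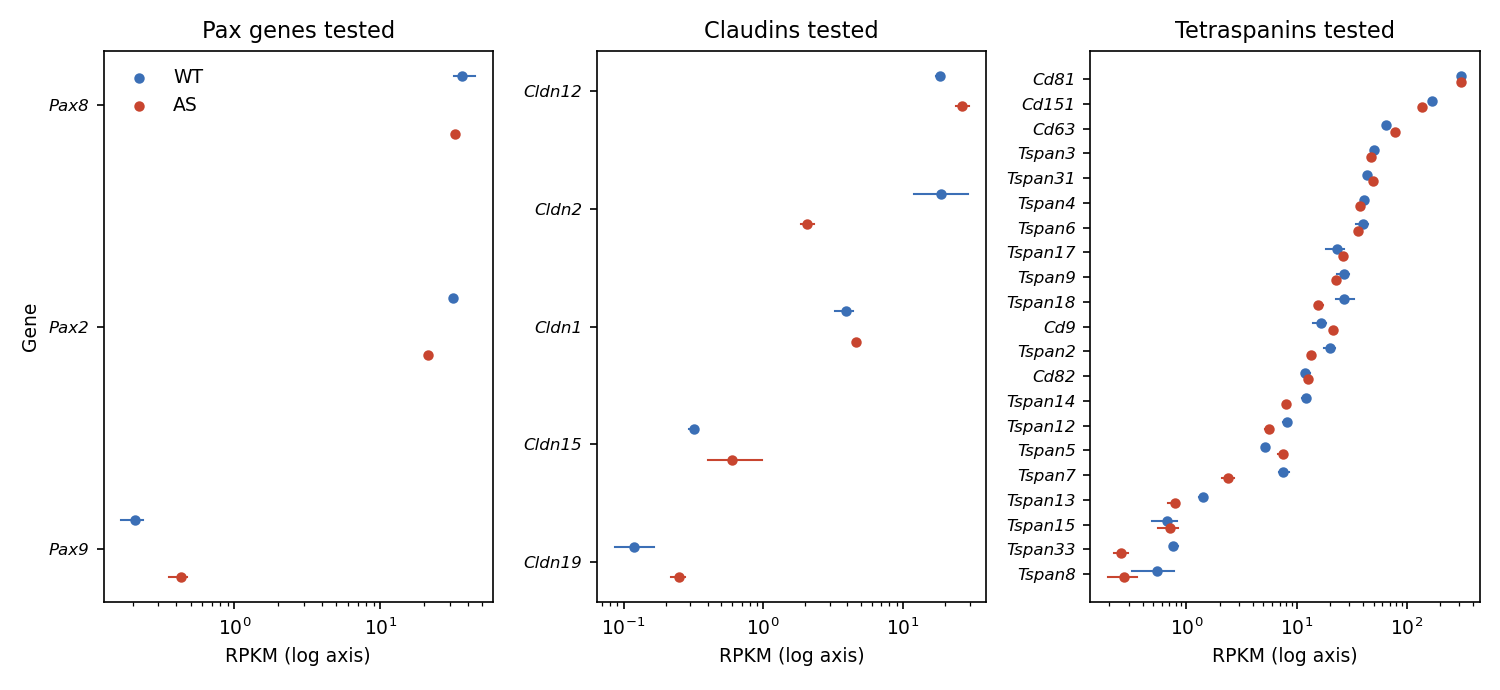
Expression per gene length (RPKM, log axis) of the Pax genes, claudins and tetraspanins that were tested, with the mean (point) and range (line) of 3 WT (blue) and 3 AS (red) samples. Pax8 and Pax2 lie far above Pax9. Cldn1 is claudin number 3 by level in WT and number 2 in AS podocytes, and Cd9 stands in the middle of the tetraspanins of the chosen list.

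Cldn1 (ENSMUSG00000022512.4, chromosome 16) encodes claudin-1, a strand-forming tight junction protein. It was at 15.7, 21.4 and 19.3 CPM in WT replicates 1 to 3 and 21.1, 22.7 and 22.9 CPM in AS replicates 1 to 3. WT replicate 1 was the lowest, and the lowest AS sample fell under the highest WT sample. With means of 18.8 ± 2.87 and 22.2 ± 0.976 CPM (SD, n = 3 each), the log2 fold change was 0.24 (SE 0.11, adjusted p = 0.105, edgeR) and did not pass. It was 0.13 without WT replicate 1 (adjusted p = 0.251, edgeR) and 0.35 without WT replicate 2, where it passed (adjusted p = 0.0369, edgeR).

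Among 23 claudins, 5 were tested and 8 had 0 counts in all samples. Per gene length, Cldn1 ranked behind Cldn12 and Cldn2 in WT podocytes and behind Cldn12 in AS podocytes. Cldn2 forms the cation-permeable pores of the proximal tubule. It was at 96.3, 49.0 and 39.9 CPM in WT replicates 1 to 3 and 6.77, 6.15 and 7.67 CPM in AS replicates 1 to 3. The AS samples were at a small part of the lowest WT level, at -3.17 on the log2 scale (SE 0.30, adjusted p = 4.38e-05, edgeR), or -2.70 without WT replicate 1. Cldn2 thus stood above Cldn1 in WT podocytes, at 18.6 ± 9.10 against 3.88 ± 0.593 RPKM, and below it in AS podocytes, at 2.06 ± 0.230 against 4.59 ± 0.202 RPKM (SD, n = 3 each). Cldn12 and Cldn19 were picked out after their values were seen. Cldn12 rose by 0.52 on the log2 scale (adjusted p = 0.000783, edgeR). The barely expressed Cldn19 rose by 1.06 (adjusted p = 0.0283, edgeR) and lost the call in 4 of 6 fits with 1 sample left out.

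Cd44 (ENSMUSG00000005087.18, chromosome 2) encodes the hyaluronan receptor used as a marker of activated parietal cells. It reached 205, 262 and 283 CPM in WT replicates 1 to 3 and 184, 191 and 178 in AS replicates 1 to 3. The groups did not overlap, although WT replicate 1 lay nearer to the AS samples than to the other WT samples. The means were 250.2 ± 40.3 and 184 ± 6.78 CPM (SD, n = 3 each), or 0.737 times the WT level in AS podocytes (log2 fold change -0.44, SE 0.10, adjusted p = 0.00837, edgeR). It was -0.57 without WT replicate 1 and kept an adjusted p under 0.05 in all 6 fits with 1 sample left out.

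Cd9 (ENSMUSG00000030342.9, chromosome 6), a tetraspanin that organises integrins and growth factor precursors in the membrane, moved in the other direction. It was at 29.0, 37.9 and 34.6 CPM in WT replicates 1 to 3 and 40.7, 47.0 and 44.6 CPM in AS replicates 1 to 3. The lowest AS sample was above the highest WT sample by a small margin. From means of 33.8 ± 4.51 and 44.1 ± 3.19 CPM (SD, n = 3 each), the log2 fold change was 0.38 (SE 0.10, adjusted p = 0.0132, edgeR), 1.31 times the WT level (1.305 before rounding). It was 0.28 when WT replicate 1 was left out and 0.47 when WT replicate 2 was, and without AS replicate 2 the call was lost (0.33, adjusted p = 0.0532, edgeR). Gm26728, which shares 218 bases at 100% identity with a Cd9 transcript, held at most 15 counts in a sample, and the pseudogene Cd9-ps held 0.

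Cd24a (ENSMUSG00000047139.10, chromosome 10) encodes a small glycosylated membrane protein and was the most abundant of the 7 genes. It reached 703, 718 and 668 CPM in WT replicates 1 to 3 and 944, 890 and 890 in AS replicates 1 to 3. The difference between the groups was larger than the range within either line. The means were 697 ± 25.6 and 908 ± 31.1 CPM (SD, n = 3 each), 1.30 times the WT level, or 0.38 on the log2 scale (SE 0.062, adjusted p = 0.00111, edgeR). It stayed between 0.35 and 0.40 with each sample left out. Per gene length it was at 270.0 ± 9.94 RPKM in WT and 352 ± 12.1 RPKM in AS podocytes (SD, n = 3 each), and 99.4% of the protein-coding genes tested had a lower RPKM. A 218-base stretch of its mRNA matches the pseudogene Gm6212 at 96.8% identity, so reads from it could be assigned to either gene.

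Prom1 (ENSMUSG00000029086.16, chromosome 5), which encodes the membrane protein prominin-1, was close to the limit of detection. It had 17, 9 and 22 counts in WT replicates 1 to 3 and 17, 27 and 14 counts in AS replicates 1 to 3, or 0.335, 0.192, 0.477, 0.377, 0.525 and 0.254 CPM in the same order. The groups overlapped throughout. A difference was not detectable at this depth (log2 fold change 0.20, SE 0.46, adjusted p = 0.763, edgeR), and the sign turned with the sample left out, from -0.098 to 0.53. Only 1.51% of the protein-coding genes tested had a lower RPKM. The 2 genes used together as a progenitor signature were thus far apart in level, with Cd24a at between 3897 and 10390 times the RPKM of Prom1 in single samples.

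**Figure D3:**
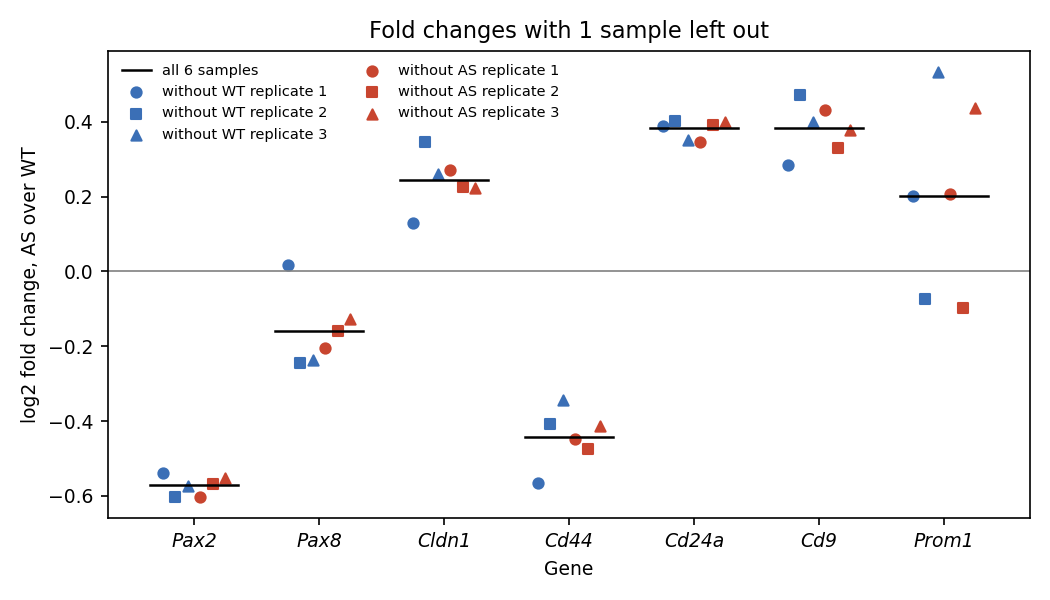
The log2 fold change (AS over WT) of each marker with all 6 samples (black line) and with 1 sample left out (blue for a WT, red for an AS sample, the shape giving the replicate number). Pax2 and Cd24a hardly move, Pax8 crosses 0 without WT replicate 1, and Prom1 crosses 0 without WT replicate 2 and without AS replicate 2.

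The markers were ordered by RPKM within each line. In WT podocytes Cd24a was followed by Cd44 (36.9 ± 5.94 RPKM, SD, n = 3), Pax8 and Pax2, whose ranges overlapped, and then by Cd9 (16.5 ± 2.21), Cldn1 and Prom1. In AS podocytes Pax8 (32.7 ± 1.54 RPKM) stood above Cd44 (27.2 ± 1.00) with no overlap, while Cd9 (21.6 ± 1.56) and Pax2 (21.4 ± 0.606) could not be ordered. The ratio of Cd24a to Cd44 per gene length was 8.999, 7.19 and 6.20 in WT replicates 1 to 3 and 13.5, 12.2 and 13.2 in AS replicates 1 to 3. That of Cd9 to Cd44 was 0.468, 0.479 and 0.405 in WT replicates 1 to 3 and 0.732, 0.815 and 0.833 in AS replicates 1 to 3. The groups did not overlap in either ratio (exact permutation test, two-sided, p = 0.10 for each, the smallest possible with 3 against 3 samples). Every AS sample was above every WT sample for Cd24a and Cd9, and below for Cd44. Both ratios therefore had to separate the groups, and they add no support to the calls of the single genes. Of the 4 ratios of markers compared in this way, that of Cd24a to Prom1 overlapped (exact permutation p = 0.80), and no ratio could pass after adjustment.

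The markers were then set beside the genes around them, since the genes of several chromosomes were shifted together between the lines. For each marker the 10 tested genes on either side were taken in the order of the annotation. Around Pax2, 13 of these 20 neighbours were called higher and 0 lower in AS podocytes, with a median log2 fold change of 0.46, and the median of the 387 genes of chromosome 19 with a mean log2 CPM over 2 was 0.19. Pax2 thus fell while most of its neighbours rose. Around Cd9, 0 of 20 neighbours were higher and 10 were lower, with a median of -0.37, and the median of chromosome 6 was -0.20. Cd9 thus rose while the called neighbours fell.

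Cd24a moved with its surroundings. Of its 20 neighbours, 11 were called higher and 1 lower, with a median log2 fold change of 0.28, and the median of the 530 genes of chromosome 10 was 0.32. In a fit added after the data were seen, with the chromosome median as an offset, the Cd24a difference was 0.059 (adjusted p = 0.511, edgeR) and no longer called, whereas Pax2 was at -0.76 (adjusted p = 8.62e-06, edgeR), Cd9 at 0.58 (adjusted p = 0.00183, edgeR) and Cd44 at -0.42 (adjusted p = 0.0132, edgeR). Around Cd44, 2 neighbours were higher and 6 lower (median -0.14). Around Cldn1, 2 were higher and 6 lower (median -0.014), and around Pax8, 1 was higher and 2 were lower (median -0.015). Around Prom1, 8 were higher and 3 lower (median 0.19). Why the genes of a chromosome are shifted together was not tested.

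**Figure D4:**
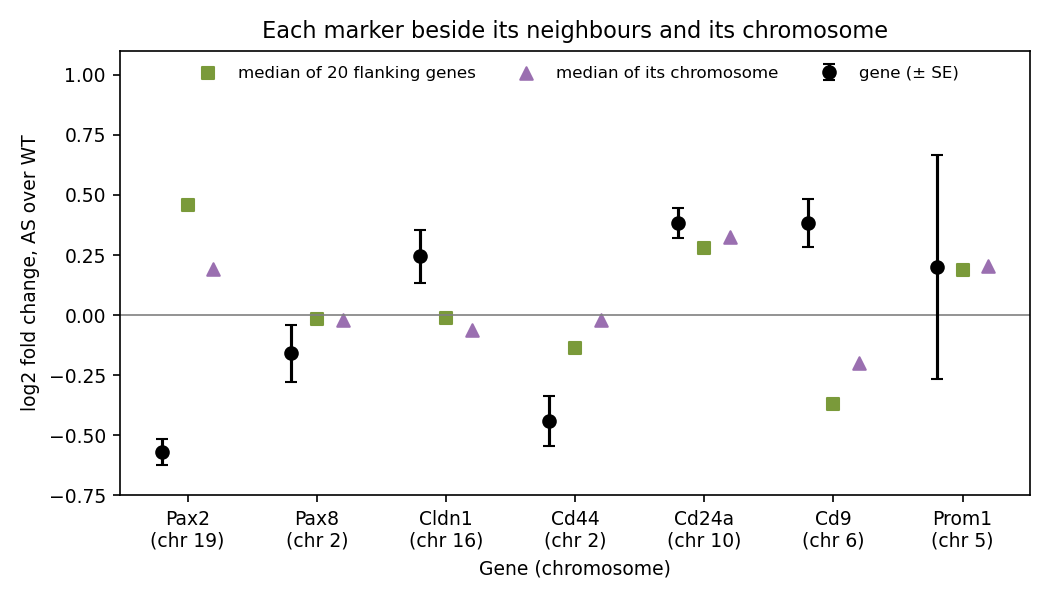
The log2 fold change (AS over WT) of each marker (black, ± SE) beside the median of the 20 tested genes that flank it (green squares) and the median of its chromosome (purple triangles). Pax2, Cd9 and Cldn1, which was not called, lie on the opposite side of 0 from both medians. Cd24a and Prom1, which was not called, lie near both.

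Of a list of 18 further genes known from parietal epithelium (keratins, adhesion molecules and others), 17 were tested, 0 were higher, 11 were lower and 6 were not called, against 19.6% of all genes tested that were lower. Krt18 reached the count minimum only in WT samples and could be called only lower, and of the other 16 genes 10 were lower. The median log2 fold change of the list was -0.73, against 0.0061 for all genes. The list was chosen with earlier results of these data known, so its lean to 1 side is no independent support. Ceruloplasmin (Cp), a copper-binding ferroxidase, fell from 285 ± 42.4 to 85.3 ± 5.79 CPM and ladinin (Lad1), a keratin-associated anchoring protein, from 21.2 ± 0.451 to 6.87 ± 0.526 CPM (SD, n = 3 each).

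Other adhesion and keratin genes of this list were picked out after their values were seen. The adhesion molecule Alcam was at 34.5, 31.3 and 25.9 CPM in WT replicates 1 to 3. In AS replicates 1 to 3 it was at 4.35, 3.77 and 1.94 CPM. Keratin 19 (Krt19) fell from 3.98 ± 1.28 to 0.340 ± 0.342 CPM (SD, n = 3 each). Keratin 18 (Krt18) summed to 42 counts in WT against 3 counts in AS samples, a ratio of 0.0677 (95% exact counting interval 0.0134 to 0.212), and keratin 8, its usual partner, did not reach the filter. Without WT replicate 1 the list had 0 genes higher and 11 lower, with a median of -0.52. In 3 other settings 1 gene was higher, with 11 lower without WT replicate 2, 13 lower with no low-count filter and 13 lower with the replicate block.

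**Figure D5:**
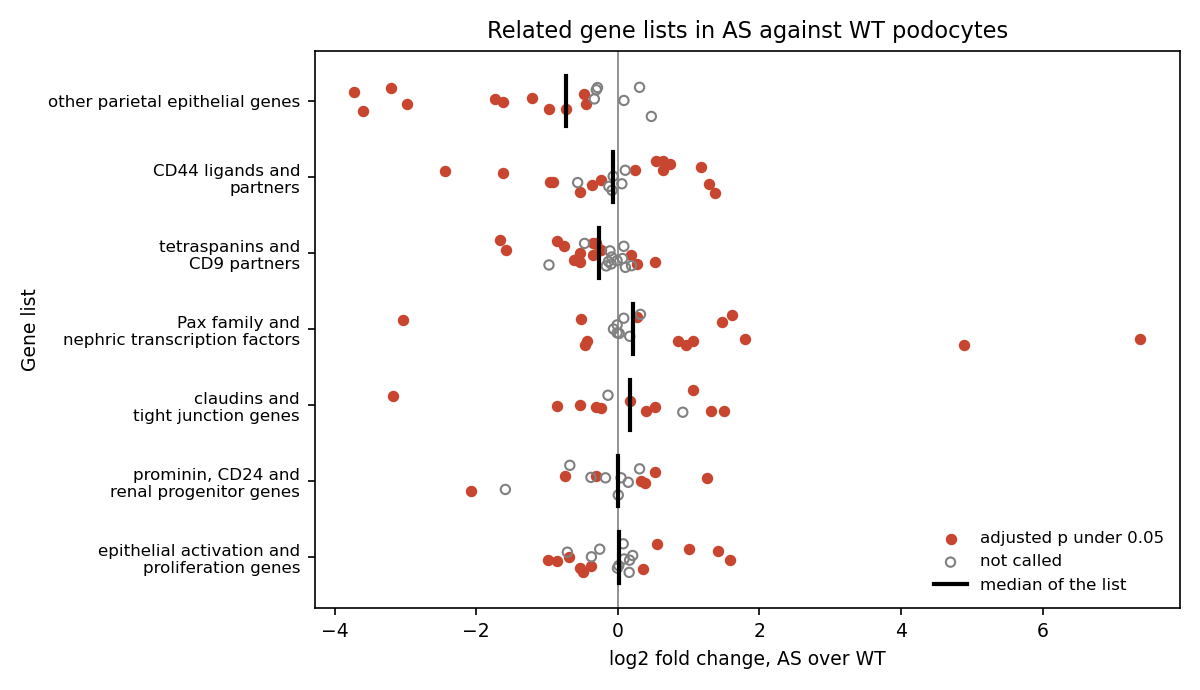
The log2 fold change (AS over WT) of each tested gene in 7 related lists, filled red where the adjusted p was under 0.05, with a black bar at the median of each list. In the list of other parietal epithelial genes all 11 called genes lie below 0, while in the other lists called genes lie on both sides. The lists were chosen with earlier results of these data known.

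CD44 ligands and partners changed in both directions. Of 22 genes, 21 were tested, 8 were higher and 7 were lower (71.4% called, against 40.1% of all genes tested), with a median log2 fold change of -0.066. The hyaluronan-degrading protein gene Cemip was at 294, 400 and 322 CPM in WT replicates 1 to 3 and 874, 875 and 890 CPM in AS replicates 1 to 3, 2.60 times the WT level (log2 fold change 1.38, SE 0.10, adjusted p = 9.96e-06, edgeR). The chemokine gene Cxcl12 was 2.25 times as high in AS podocytes (1.17, SE 0.087, adjusted p = 9.07e-06, edgeR). The CD44 ligand osteopontin (Spp1) was at 1693, 851 and 972 CPM in WT replicates 1 to 3 and 242, 183 and 224 CPM in AS replicates 1 to 3. WT replicate 1 was high, and all AS samples were below all WT samples (log2 fold change -2.44, SE 0.24, adjusted p = 4.90e-05, edgeR). Without WT replicate 1 the difference was -2.08.

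Of 31 tetraspanins and CD9 partners 28 were tested, 3 were higher and 13 lower, against 20.4% higher and 19.6% lower over all genes tested, with a median log2 fold change of -0.27. Tspan7 fell from 53.7 ± 6.02 to 16.9 ± 2.11 CPM, Tspan33 from 3.92 ± 0.341 to 1.31 ± 0.202 CPM and Tspan14 from 32.4 ± 2.79 to 21.1 ± 1.07 CPM (SD, n = 3 each). The 3 that were higher, named after their values were seen, were Tspan5 (log2 fold change 0.53), the endosomal tetraspanin Cd63 (0.27) and Tspan31 (0.18), which lost its call in 3 of 6 fits with 1 sample left out (adjusted p up to 0.124, edgeR). Cd63 and Tspan31 lie on chromosome 10, as does Cd24a, and their log2 fold changes turned to -0.057 and -0.14 relative to its median. By RPKM Cd9 was number 12 in WT and number 10 in AS podocytes among 23 tetraspanins, which were Cd9 and those of the chosen list. Of these genes Cd81, its partner in tetraspanin complexes, was the highest at 311 RPKM in WT and 309 RPKM in AS podocytes.

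A list of the other Pax genes, nephric transcription factors and signals of kidney induction (such as Ret, Gdnf and Wnt4, which are no transcription factors) changed in both directions. Of 27 genes, 20 were tested, 9 were higher and 4 were lower (65.0% called, against 40.1% of all genes tested, 20.4% higher and 19.6% lower), with a median log2 fold change of 0.22. Hoxd11 and Lhx1 reached the count minimum only in AS samples and could be called only higher. Emx2, a homeobox factor of the nephric duct, was at 18.2, 23.3 and 21.7 CPM in WT replicates 1 to 3 and 56.9, 68.9 and 67.4 CPM in AS replicates 1 to 3 (log2 fold change 1.61, SE 0.11, adjusted p = 4.24e-06, edgeR). Hoxd11, of the metanephric Hox genes, summed to 3 counts in WT against 597 counts in AS samples, a ratio of 189 (95% exact counting interval 64.3 to 918). Wt1, the zinc finger factor that podocytes keep when mature, was at 25.8, 15.3 and 20.7 CPM in WT replicates 1 to 3 and 2.93, 1.44 and 3.14 CPM in AS replicates 1 to 3, which is -3.04 on the log2 scale (SE 0.28, adjusted p = 3.57e-05, edgeR). Osr1 (-0.52) and Foxc1 (-0.43) were also lower.

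The remaining lists showed changes on both sides. Of 27 claudin and tight junction genes 13 were tested, 6 were higher and 5 were lower (84.6% called, against 40.1% of all genes tested). Marveld2 reached the count minimum only in AS samples. Besides Cldn2, the junctional adhesion molecule Jam2 (log2 fold change -0.85), the paracingulin gene Cgnl1 (-0.54) and Jam3 (-0.31) were lower, and the number called ran from 6 to 9 with 1 sample left out. Of 20 prominin, CD24 and renal progenitor genes 15 were tested, of which 46.7% were called, near the 40.1% of all genes tested. Sox4 (0.32), Sox11 (0.38), Cited2 (0.52) and Ly6a (1.26) were higher and the adhesion molecule Mcam (-0.31) and Nanog (-2.08) were lower. Nanog was barely expressed in either line, at 0.834 in WT against 0.193 CPM in AS podocytes. Of 23 epithelial activation and proliferation genes 21 were tested, and the 5 higher and 6 lower (52.4% called) were not far from the 40.1% of all genes tested. The mesenchymal factor Twist1 (1.59), Snai2 (1.00), the receptor Notch1 (1.42), Klf4 (0.56) and the cell cycle inhibitor Cdkn1b (0.36) were higher. The 6 lower were the growth factor receptor Egfr (-0.68), the Notch ligand Jag1 (-0.85), Mki67 (-0.98), Pcna (-0.38), Tagln (-0.54) and Stat3 (-0.49). Both Notch1 and Klf4 were highest in WT replicate 1 among the WT samples, and without it their differences were 1.83 and 0.82. Klf4 lost its call in 4 of 6 fits with 1 sample left out (adjusted p up to 0.0980, edgeR).

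Markers of other cell types were counted because Cd44, Cd24a and Cd9 are also expressed by leukocytes and tubular cells. Of 10 leukocyte markers, 4 were tested, 3 had 0 counts in all samples, and their summed level lay between 11.8 and 15.8 in WT against between 5.63 and 7.47 CPM in AS podocytes. Most of it was the receptor gene Csf1r, the only leukocyte marker called, which fell from 10.25 ± 1.42 to 3.82 ± 0.522 CPM (SD, n = 3 each). The pan-leukocyte gene Ptprc was at 0.248 in WT against 0.141 CPM in AS podocytes, and the 8 endothelial markers summed to at most 5.28 CPM. Of 12 tubule markers, 7 were tested, 0 were higher and 2 were lower (28.6% called, against 40.1% of all genes tested). The water channel gene Aqp1 fell from 115 ± 10.3 to 69.7 ± 16.3 CPM (SD, n = 3 each). The other lower call was Havcr1, at 0.341 CPM in WT podocytes, which reached the count minimum only in WT samples and could be called only lower. Aqp2 and Umod had 0 counts in all samples, while the endocytic receptor Lrp2 was at 274 ± 30.9 in WT against 255 ± 55.6 CPM in AS podocytes (SD, n = 3 each). Their sum lay between 381 and 426 in WT against between 282 and 394 CPM in AS podocytes. Of the 9 mesangial and fibroblast markers, 8 were tested, 3 were higher and 2 lower (62.5% called, against 40.1% of all genes tested). Their summed level lay between 288 and 315 in WT against between 705 and 947 CPM in AS podocytes. The collagen genes Col1a1 (24.3 ± 4.15 to 477 ± 99.1 CPM) and Col3a1 (9.44 ± 1.58 to 198 ± 32.9 CPM) rose, while the pericyte and mesangial receptor gene Pdgfrb (252.5 ± 14.3 to 116 ± 0.362 CPM) and the proteoglycan gene Cspg4 (10.2 ± 3.81 to 0.445 ± 0.249 CPM) fell (SD, n = 3 each). The part of such cells or states in the marker levels was not tested. Of 16 podocyte markers 13 were tested, 3 passed as higher and 7 as lower (76.9% called, against 40.1% of all genes tested). Among the lower ones, Nphs1 reached the count minimum only in WT samples and could be called only lower.

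For each marker the 2 genes with the most similar profile over the 6 samples were found, as the smallest Euclidean distance between log2(CPM + 0.5) values after the WT mean of each gene was subtracted, among genes with a mean CPM of at least 1. These were Rps15a-ps7 and Akirin1 for Pax2 (distances 0.0593 and 0.0710), Bpgm and Ftl1 for Cd44 (0.0890 and 0.106), Asap2 and Vps33a for Cd24a (0.0485 and 0.0522) and Rpl22l1 and Pdp2 for Cd9 (0.0838 and 0.0903). For the markers that were not called they were Hcfc1r1 and Kdm4c for Pax8 (0.107 and 0.109), Sac3d1 and Mfsd5 for Cldn1 (0.0721 and 0.0769) and Tcaim and Cox20 for Prom1 (0.210 and 0.241). The 6 samples fall into 2 lines, so a short distance means a similar difference between the lines.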

How the data were processed

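RNA-seq gene counts of 3 WT and 3 AS podocyte samples were used. The authors deposited raw counts per gene in 1 table, which is not normalized. The submitters' processing notes name FastQC, Trim Galore, STAR and edgeR and the build mm39, with the counting tool, strand setting and annotation release not given in the sources used here. Gene symbols, chromosomes and exon lengths were taken from GENCODE M21 (GRCm38), which matched 51880 of 57132 identifiers. Identifiers without a symbol held 0.363% of counts. CPM used TMM-scaled library sizes, and RPKM divided CPM by the union exon length.

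Genes passing filterByExpr (minimum count 10, minimum total 15) were fitted with edgeR's quasi-likelihood test (edgeR 4.0.16, R 4.3.3) on genotype, with Benjamini-Hochberg adjustment over all 16263 genes and a threshold of 0.05. Standard errors are the log2 fold change divided by the root of the F statistic. Alternatives used other scalings and filters, DESeq2 1.42.0, limma-voom (limma 3.58.1), a replicate block, chromosome medians, and each sample left out. The scripts were tested on simulated data. Depth per sample is given in the results, and intervals cover counting error only. The markers and lists were chosen with earlier results of these data known. Of each list the 3 genes with the smallest adjusted p were named, and any further gene was named after its values were seen. Tmem2 was matched as Cemip2. Some genes of the lists are counted but not reported by name here.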

Additional observations from a re-analysis of the deposited data

How the results depend on the processing

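Of 97 tested alternative values of the 7 log2 fold changes, 89 kept both the direction and the call. Requiring a fold over 2 left 1818 of 6517 genes called, and the number called ran from 5120 to 6776 with 1 sample left out. With library size alone as the scaling, 3590 genes were higher and 2900 lower. With the replicate block, Cldn1 passed (0.25, adjusted p = 0.0384, edgeR) and 7066 genes were called. Samples with the same number deviated together with correlations of 0.147, 0.0939 and 0.0526, against -0.130 to 0.0571 for other pairs. The sample titles number them as sets without saying what a set shares, and an effect of the set was not tested. With the chromosome median as an offset Cd24a was 0.059 and no longer called, and Prom1 was -0.0008. With the median only subtracted, which has no test of its own, Pax2 was -0.76, Cd24a 0.059, Cd9 0.58 and Prom1 -0.0023. Under both chromosome settings Cd63 was -0.0571 and Tspan31 -0.1414. With 1 sample left out, Pax8 ran from -0.25 to 0.017 (positive without WT replicate 1), Cldn1 from 0.13 to 0.35, Cd9 from 0.28 to 0.47 and Prom1 from -0.098 to 0.53 (-0.075 without WT replicate 2 and -0.098 without AS replicate 2), and 3 to 5 markers were called. The number of claudin and tight junction genes called ran from 6 to 9. Of 613 tested alternative values of 44 other genes, 593 kept direction and call. Prom1, at 9 to 27 counts per sample, is the marker that depth limits. The causes were not tested.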
